A study of Saccharomyces cerevisiae with 40 samples.

Results

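The genes described here encode the lower arm of the citric acid cycle of budding yeast, from 2-oxoglutarate to oxaloacetate. They are KGD1 (YIL125W), KGD2 (YDR148C), LSC1 (YOR142W), LSC2 (YGR244C), SDH1 (YKL148C), SDH2 (YLL041C), SDH3 (YKL141W), SDH4 (YDR178W), FUM1 (YPL262W) and MDH1 (YKL085W). These 10 genes, of 5557 with a value on the arrays, were matched by the gene symbol of their probes. The matching used no measured value, but the set itself was drawn up with earlier results of these data known. Every one was represented by 2 spots per array and passed the filter of values on at least 30 of 40 arrays. KGD1, KGD2, LSC1, LSC2, SDH3 and SDH4 had a value on all 40 arrays, SDH1 and MDH1 on 39, FUM1 on 38 and SDH2 on 36.

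The citric acid cycle oxidises acetyl units in the mitochondrial matrix, feeds electrons to the respiratory chain and supplies the 2-oxoglutarate and oxaloacetate from which cells build glutamate and aspartate. In its lower arm, 2-oxoglutarate dehydrogenase makes succinyl-CoA, succinyl-CoA ligase makes succinate, succinate dehydrogenase passes electrons to ubiquinone as complex II, and fumarase and malate dehydrogenase lead back to oxaloacetate. In yeast growing on glucose much of this respiratory machinery is under glucose repression, and many amino acids used as nitrogen source leave their carbon at one of these intermediates.

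Strain Σ1278b was grown in minimum medium with 3% glucose and a single nitrogen source, and was harvested at low density in exponential growth after at least 10 generations. The sources were ammonium (given as ammonium sulfate), alanine, arginine, asparagine, aspartate, citrulline, GABA, glutamate, glutamine, isoleucine, leucine, methionine, ornithine, phenylalanine, proline, serine, threonine, tryptophan, tyrosine and valine, all at 10 mM except tryptophan at 5 mM. Each of 40 arrays compared polyA RNA of a source with that of cells on 10 mM urea, with 2 arrays per source. Urea is therefore the only control and enters every value, and whether a single urea RNA served all arrays is not known here. The glucose is common to all groups, urea included.

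Arrays gave values for 3294 to 5218 genes, with a median of 4708, and 4332 genes were tested. The direction of the ratios was checked on 3 genes of nitrogen use. The GABA permease gene UGA4 stood at 4.42 ± 0.18 on GABA, the proline catabolism gene PUT2 at 2.02 ± 0.15 on proline and the arginase gene CAR1 at 5.47 ± 0.23 on citrulline. All values are log2 ratios of source over urea, a value below 0 meaning less RNA than on urea. A fitted ratio is given ± SE (n = 2 arrays per source), and the SE uses 1 pooled spread per gene from the whole fit. On tryptophan and tyrosine, whose arrays all had urea in Cy5, the fitted ratio is also shifted by a dye term estimated on the other sources. Whether replicate arrays stem from independent cultures is not stated in the labels, and the p-values may therefore reflect technical spread alone. In RNA of a whole culture, a change in every cell and a change in part of the cells cannot be told apart. A gene was called higher or lower on a source at a Benjamini-Hochberg adjusted p under 0.05, two-sided, in limma.

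Changes in RNA of the lower cycle were uneven between its genes, and most were below 0.5 in size. SDH2 and MDH1, which encode the iron-sulfur subunit of succinate dehydrogenase and mitochondrial malate dehydrogenase, accounted for 13 of the 19 values that rose. The 6 values that fell belonged to LSC2, SDH3 and SDH4 and lay on asparagine, GABA and aspartate. In all, 193 pairs of gene and source could be tested, 7 could not, and 25 were called, 19 higher (9.84%) and 6 lower (3.11%). Among all genes the shares were 10.1% higher and 9.42% lower, so the share of higher calls was near that of all genes. The split depended on the setting, with 14 higher and 3 lower without the dye term, 17 and 12 with array weights, and 22 and 9 without the tryptophan and tyrosine arrays. The median of the 193 ratios was 0.07, against -0.00 over all genes, and 171 of them were smaller than 0.5 in size. Without the adjustment, 48 of the 193 had a p under 0.05. Shares over all genes were not counted for those other settings, for ratios under 0.5 in size or for any unadjusted p.

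**Figure D1:**
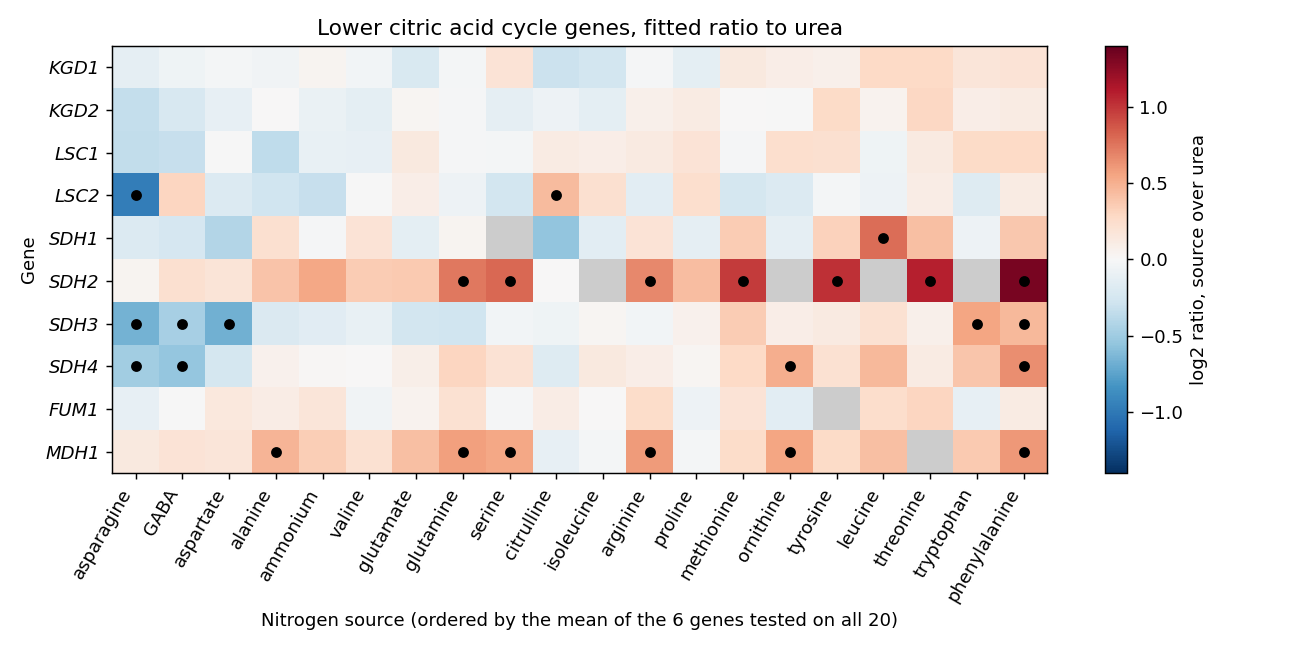
Fitted log2 ratio of source over urea for the 10 lower cycle genes (vertical axis) on the 20 nitrogen sources (horizontal axis, ordered by the mean of the 6 genes tested on every source), as colour. A black dot marks an adjusted p under 0.05 and grey marks a pair that was not tested. SDH2 and MDH1 hold 13 of the 19 higher calls, and the 6 lower calls lie on asparagine, GABA and aspartate.

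The moderated F-test over all sources asks whether a gene departed from urea on any of them. It passed for 6 of the 10 genes, against 63.5% of all genes tested. They were SDH2 (adjusted p = 3.22e-06), SDH3 (0.000127), LSC2 (0.000129), MDH1 (0.000391), SDH4 (0.0032) and SDH1 (0.0253). LSC1 (0.0686), FUM1 (0.228), KGD1 (0.362) and KGD2 (0.477) did not pass. The spread of a gene over sources gave a similar order. The SD of the fitted ratios was 0.39 for SDH2, 0.33 for SDH3, 0.32 for SDH1 and 0.30 for both SDH4 and LSC2. All lay above the upper quartile of 0.220 among 3588 genes tested on at least 15 sources, and MDH1, at 0.222, lay just above it. FUM1 (SD 0.14), KGD2 (0.15) and KGD1 (0.17) lay near the median gene, at 0.159.

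KGD1 and KGD2, of the first enzyme of the arm, varied over sources about as much as the median gene. KGD1 encodes the E1 subunit of 2-oxoglutarate dehydrogenase and KGD2 the E2 subunit, and neither was called on any of 20 sources. The 40 arrays of KGD1 ran from -0.51 to 0.38 with a median of 0.01, and those of KGD2 from -0.39 to 0.42 with a median of -0.03. The arrays of a source lay on opposite sides of 0 for 10 of 20 sources in each gene. The fitted ratio of KGD1 was lowest on citrulline, at -0.30 ± 0.15 (adjusted p = 0.209), and highest on leucine, at 0.28 ± 0.15 (adjusted p = 0.191). No source reached an unadjusted p under 0.05 for KGD1. For KGD2 only asparagine did, with arrays at -0.39 and -0.27 and a fitted ratio of -0.33 ± 0.14 (adjusted p = 0.0914). Both arrays on threonine were above 0 in both genes, with fitted ratios of 0.28 ± 0.15 for KGD1 (adjusted p = 0.189) and 0.29 ± 0.14 for KGD2 (adjusted p = 0.152).

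Succinyl-CoA ligase is a dimer of the LSC1 (alpha) and LSC2 (beta) products. LSC2 fell on asparagine, where its arrays stood at -0.92 and -1.02 and the fitted ratio was -0.97 ± 0.12 (95% interval -1.23 to -0.71, adjusted p = 1.83e-06), or 0.511 of the urea level. Both asparagine arrays lay below the arrays of every other source, the nearest being alanine replicate 1. On citrulline LSC2 rose, with arrays at 0.26 and 0.63 and a fitted ratio of 0.44 ± 0.12 (adjusted p = 0.0242). This call ended without either citrulline array, at 0.50 without replicate 1 (adjusted p = 0.114) and 0.39 without replicate 2 (adjusted p = 0.277). Leaving an array out leaves the source with a single array. The citrulline call also ended at the same ratio without the dye term (adjusted p = 0.156) and with array weights (0.129).

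On the other 18 sources LSC2 was not called, and its fitted ratios ran from -0.32 ± 0.12 on ammonium (adjusted p = 0.0696) to 0.30 ± 0.12 on GABA (adjusted p = 0.0943). The GABA arrays of LSC2 disagreed, at -0.03 and 0.62. LSC1 was called on none of its 20 sources, though 4 had an unadjusted p under 0.05. Its lowest ratios were -0.36 ± 0.13 on alanine (adjusted p = 0.0592), -0.34 ± 0.13 on asparagine (0.061) and -0.32 ± 0.13 on GABA (0.0903), and on these 3 sources both of its arrays were below 0. On asparagine, then, both ligase genes had both arrays below 0, LSC2 by more. On GABA LSC1 was below 0 on both arrays and LSC2 was not. Across the 20 sources the fitted ratios of the pair correlated at r = 0.424, a description of points that share the urea control and the dye term.

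Succinate dehydrogenase is encoded by SDH1 (the flavoprotein), SDH2 (the iron-sulfur protein), and SDH3 and SDH4 (the membrane anchor subunits). SDH2 rose on 7 of the 16 sources where it could be tested and fell on none. On phenylalanine its arrays stood at 1.22 and 1.44 and the fitted ratio was 1.33 ± 0.20 (95% interval 0.91 to 1.74, adjusted p = 0.000155), or 2.51 times the urea level. On threonine they stood at 1.22 and 0.95, with a fitted ratio of 1.09 ± 0.20 (adjusted p = 0.00062). On no other tested source did both arrays of SDH2 reach the lower of these 4 values.

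The tyrosine arrays of SDH2 lay apart, at 1.63 and 0.54 (fitted 1.03 ± 0.21, adjusted p = 0.00191), as did those of methionine, at 1.31 and 0.64 (0.98 ± 0.20, 0.00103). Serine gave 0.47 and 1.14 (0.81 ± 0.20, 0.00548), glutamine 0.62 and 0.85 (0.74 ± 0.20, 0.00995), and arginine 0.23 and 1.11 (0.67 ± 0.20, 0.0249). All 14 of these arrays on the 7 called sources were above 0. The arginine value rests on replicate 2, without which it was 0.26 (adjusted p = 0.641), and the tyrosine value on replicate 1, without which it was 0.48 (adjusted p = 0.207). The calls on methionine (0.56 without replicate 1, adjusted p = 0.195), threonine (0.88 without replicate 1, 0.0633), serine (0.51 without replicate 2, 0.332) and glutamine (0.80 without replicate 1, 0.0947, and 0.67 without replicate 2, 0.193) also ended with an array left out. Phenylalanine kept its call without either array. The arginine call also ended at the same ratio without the dye term (adjusted p = 0.0519) and with array weights (0.134).

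At the other end, SDH2 stood at 0.00 ± 0.20 on citrulline (arrays at 0.01 and -0.01), 0.04 ± 0.20 on asparagine, 0.18 ± 0.20 on aspartate and 0.22 ± 0.20 on GABA. Every fitted ratio of SDH2 was at or above 0, and both arrays were above 0 on 14 of 16 sources. Its mean over sources, 0.57, was higher than that of 97.5% of genes. Since urea enters every ratio, a low SDH2 level on urea and high levels on many sources cannot be told apart. Ammonium, with arrays at 0.55 and 0.52, missed the threshold at 0.54 ± 0.20 (adjusted p = 0.0619). On isoleucine (0.14), tryptophan (0.76), leucine (1.13) and ornithine (1.18) a single array gave a value and SDH2 was not tested.

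SDH3 moved in both directions. It fell on aspartate, with arrays at -0.81 and -0.54 and a fitted ratio of -0.67 ± 0.13 (adjusted p = 0.000644), and on asparagine, with arrays at -0.75 and -0.58 and a fitted ratio of -0.66 ± 0.13 (adjusted p = 0.000578). Neither call ended when either array was left out. It also fell on GABA, where the arrays stood at -0.54 and -0.40 and the fitted ratio was -0.47 ± 0.13 (adjusted p = 0.013). The arrays of these 3 sources were all below 0, and their fitted ratios differed from each other by less than 2 SE.

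On phenylalanine SDH3 rose, with arrays at 0.37 and 0.54 and a fitted ratio of 0.46 ± 0.13 (adjusted p = 0.0163). On tryptophan the arrays were 1.14 and 0.20 and the fitted ratio was 0.55 ± 0.14 (adjusted p = 0.0059). The tryptophan value rests on replicate 1, the array with the fewest genes measured, and was 0.08 without it (adjusted p = 0.763). Leaving out an array also ended the calls on GABA (-0.52 without replicate 1, adjusted p = 0.0901, and -0.42 without replicate 2, 0.257) and phenylalanine (0.42 without replicate 1, 0.232, and 0.49 without replicate 2, 0.125). At the same ratios, the calls on GABA and phenylalanine ended without the dye term (adjusted p = 0.0732 and 0.0823) and that on tryptophan with array weights (0.0562). Methionine, with both arrays above 0 at 0.30 and 0.41, gave 0.35 ± 0.13 (adjusted p = 0.0537).

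SDH4 followed a like order over sources. It fell on GABA, with arrays at -0.62 and -0.46 and a fitted ratio of -0.54 ± 0.16 (adjusted p = 0.0189), and on asparagine, with arrays at -0.47 and -0.51 and a fitted ratio of -0.49 ± 0.16 (adjusted p = 0.0285). It rose on phenylalanine, with arrays at 0.73 and 0.58 and a fitted ratio of 0.65 ± 0.16 (adjusted p = 0.00677), and on ornithine, with arrays at 0.28 and 0.73 and a fitted ratio of 0.50 ± 0.16 (adjusted p = 0.0297). The GABA and asparagine arrays lay below all phenylalanine and ornithine arrays. Each of the 4 calls ended with an array left out. The values were -0.55 and -0.53 on GABA without replicate 1 and 2 (adjusted p = 0.146 and 0.237), -0.61 and -0.37 on asparagine (0.0903 and 0.424), 0.65 and 0.36 on ornithine (0.0961 and 0.402), and 0.48 on phenylalanine without replicate 1 (0.268). Without the dye term the ratios on GABA, asparagine and ornithine were the same and not called (adjusted p = 0.0542, 0.0715 and 0.076). Leucine, with arrays at 0.52 and 0.39, gave 0.45 ± 0.16 (adjusted p = 0.054).

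SDH1 rose on leucine alone of its 19 tested sources. Its leucine arrays stood at 0.97 and 0.60 and the fitted ratio was 0.78 ± 0.20 (95% interval 0.38 to 1.19, adjusted p = 0.00731), which became 0.47 without replicate 1 (adjusted p = 0.337). The lowest ratio of SDH1 was on citrulline, where arrays at -0.68 and -0.42 gave -0.55 ± 0.20 (adjusted p = 0.0788). On threonine both arrays were close together, at 0.42 and 0.44, and the fitted ratio was 0.43 ± 0.20 (adjusted p = 0.128). Serine had a value of 0.50 on a single array and was not tested.

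The 4 subunit genes had no source on which all were called. On phenylalanine SDH2, SDH3 and SDH4 rose, while SDH1 stood at 0.38 ± 0.20 (adjusted p = 0.181) with both arrays above 0. On asparagine SDH3 and SDH4 fell, and SDH1 at -0.19 ± 0.20 (adjusted p = 0.521) and SDH2 at 0.04 were not called. Across sources the fitted ratios of the 6 pairs of subunit genes correlated at r = 0.522 to 0.859, with a median of 0.797. The other 39 pairs among the 10 genes gave r = -0.301 to 0.838, with a median of 0.452. SDH1 and SDH2 correlated at 0.859 over 15 sources, SDH2 and SDH4 at 0.847 over 16, and SDH3 and SDH4 at 0.812 over 20. These correlations describe points that share the urea control and arrays, and the difference between the sets of pairs was not tested.

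**Figure D2:**
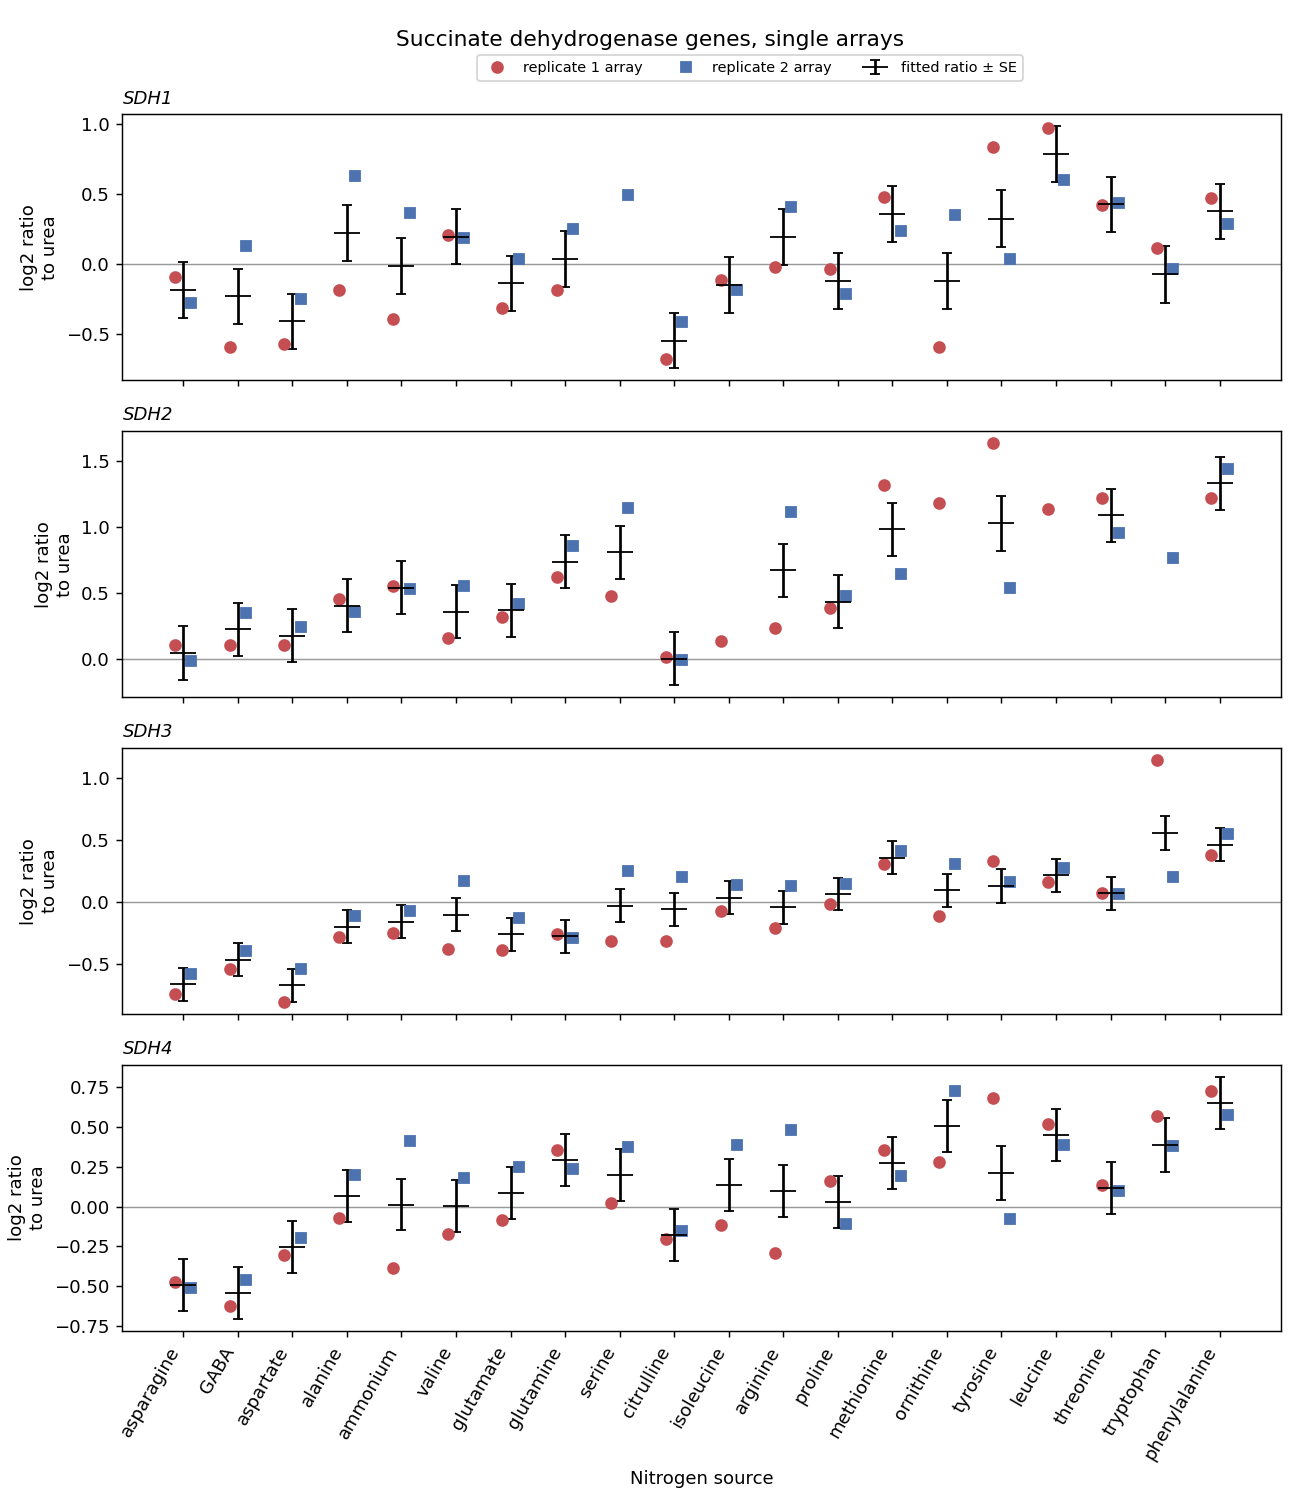
Log2 ratio of source over urea (vertical axes) on each array for SDH1, SDH2, SDH3 and SDH4 on the 20 sources (horizontal axis), with circles for replicate 1, squares for replicate 2 and bars for the fitted ratio ± SE. SDH2 is at or above 0 in every fitted ratio, whereas SDH3 and SDH4 lie below 0 on asparagine and GABA and above 0 on phenylalanine.

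FUM1 encodes fumarase, which serves both mitochondria and cytosol. It was called on none of 19 sources, and its 38 arrays ran from -0.47 to 0.44 with a median of 0.07. The highest ratio was on threonine, where arrays at 0.44 and 0.16 gave 0.30 ± 0.13 (adjusted p = 0.0906), the only source with an unadjusted p under 0.05. The arrays of a source lay on opposite sides of 0 for 10 of 19 sources. On tyrosine FUM1 had no value.

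MDH1, the mitochondrial malate dehydrogenase gene of the last step, rose on 6 of 19 tested sources and fell on none. Its arrays stood at 0.77 and 0.44 on phenylalanine (fitted 0.61 ± 0.17, adjusted p = 0.013), 0.34 and 0.84 on arginine (0.59 ± 0.17, 0.0158), and 0.63 and 0.51 on glutamine (0.57 ± 0.17, 0.0141). On ornithine they stood at 0.49 and 0.62 (0.55 ± 0.17, 0.0205), on serine at 0.36 and 0.72 (0.54 ± 0.17, 0.0207), and on alanine at 0.54 and 0.42 (0.48 ± 0.17, 0.0417). All 12 of these arrays were above 0.3, and the 6 fitted ratios differed from each other by less than 1 SE. They were between 1.39 and 1.52 times the urea level.

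On 14 of 19 sources both MDH1 arrays were above 0, and the mean over sources, 0.31, was higher than that of 91.4% of genes. As for SDH2, a low level on urea and high levels on many sources cannot be told apart. The lowest MDH1 ratios were -0.11 ± 0.17 on citrulline, where both arrays were below 0, and -0.02 ± 0.17 on both isoleucine and proline. On tyrosine the arrays disagreed by 0.86, at 0.70 and -0.16. Each of the 6 calls ended when 1 array of its source was left out, the values then being 0.43 (without phenylalanine replicate 1) and 0.78 (replicate 2), 0.32 (without arginine replicate 2), 0.50 and 0.64 (glutamine replicates 1 and 2), 0.62 and 0.49 (ornithine), 0.73 and 0.34 (serine) and 0.41 and 0.54 (alanine). The adjusted p values in those fits ran from 0.0504 to 0.468. At the same ratios, alanine was not called without the dye term (adjusted p = 0.0668) or with array weights (0.0931), nor arginine with array weights (0.108). MDH1 and SDH2 rose together on arginine, glutamine, phenylalanine and serine. MDH1 was not called on methionine, at 0.26 ± 0.17 (adjusted p = 0.273), where SDH2 rose.

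**Figure D3:**
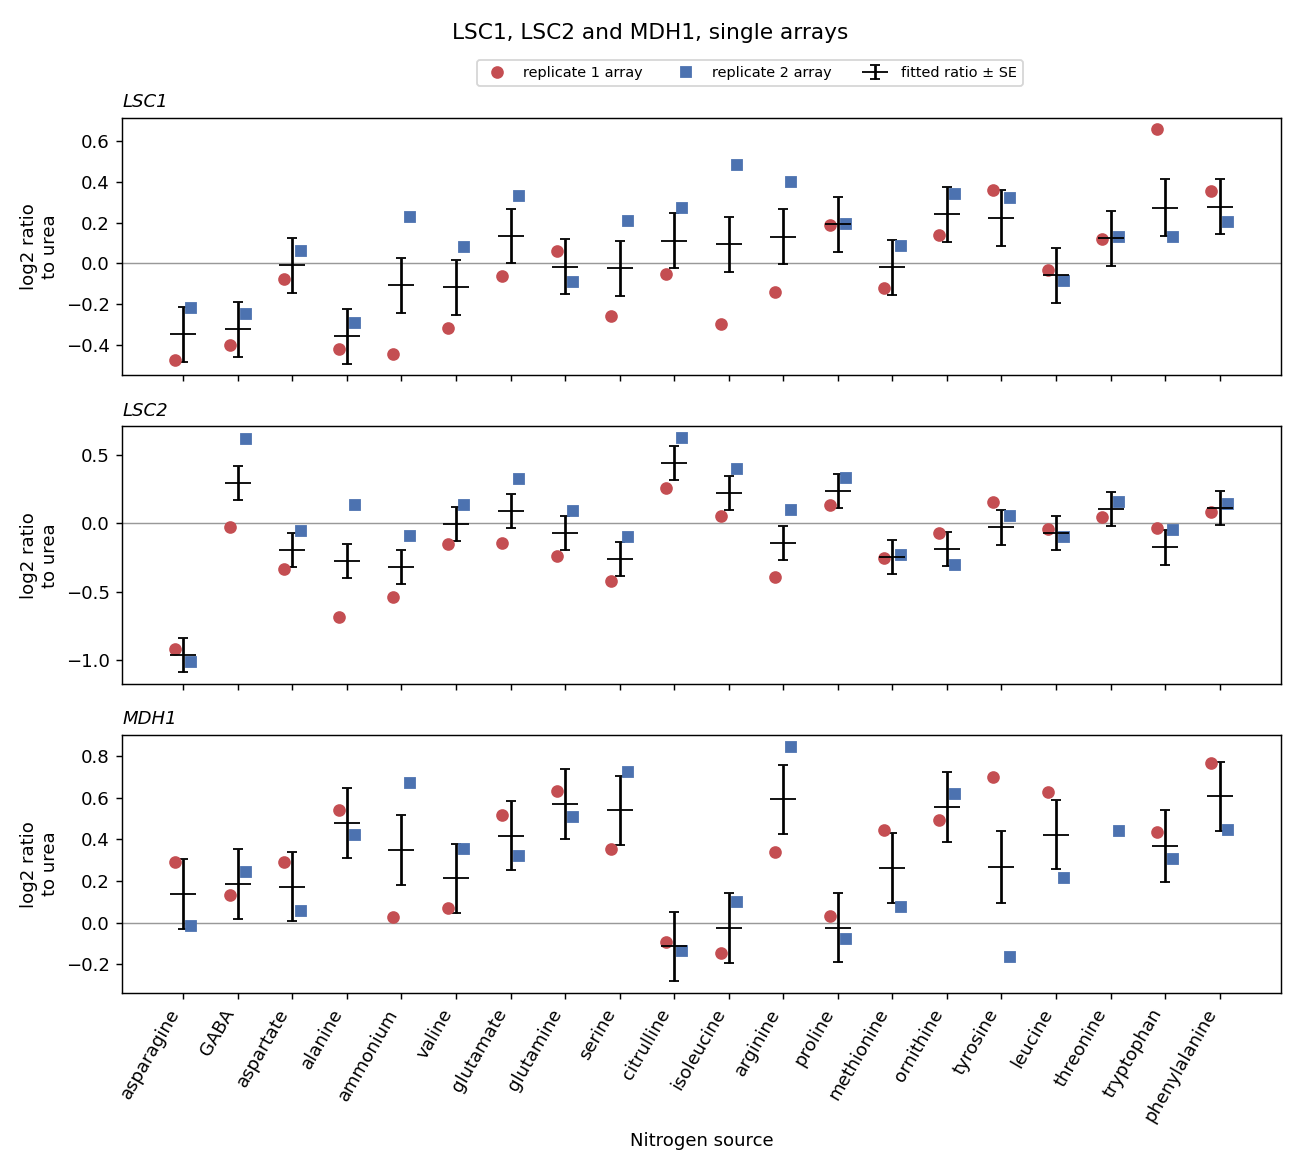
Log2 ratio of source over urea (vertical axes) on each array for LSC1, LSC2 and MDH1 on the 20 sources (horizontal axis), with circles for replicate 1, squares for replicate 2 and bars for the fitted ratio ± SE. LSC2 on asparagine, with arrays at -0.92 and -1.02, stands below all its other sources, and MDH1 has both arrays above 0 on 14 of 19 sources.

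Read by source, asparagine and phenylalanine were the opposite ends. On asparagine 3 of 10 genes were lower (LSC2, SDH3 and SDH4), against 14.7% of all genes, and the median of the 10 ratios was -0.26. On GABA 2 of 10 were lower (SDH3 and SDH4), against 11% of all genes, with a median of -0.14. On phenylalanine 4 of 10 were higher (SDH2, SDH3, SDH4 and MDH1), against 10.6%, and all 10 fitted ratios were above 0, with a median of 0.33. On threonine all 9 tested ratios were above 0 (median 0.28), and 1 was called, SDH2, against 12.7%.

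On arginine, glutamine and serine SDH2 and MDH1 were the 2 genes called, where 8.59%, 12.1% and 12.7% of all genes rose. On ornithine they were SDH4 and MDH1, against 10.5%. A single gene was called on aspartate (SDH3, lower, against 10.1%), leucine (SDH1, 10.4%), methionine (SDH2, 12.7%), tryptophan (SDH3, 10.3%), tyrosine (SDH2, 8.43%), alanine (MDH1, 9.57%) and citrulline (LSC2, 5.25%). On ammonium, glutamate, isoleucine, proline and valine none of the lower cycle genes tested was called, and the numbers with an unadjusted p under 0.05 were 3, 1, 0, 1 and 0. Of all genes tested, 20.9%, 20.3%, 9.49%, 17.2% and 16.3% were called in either direction on these 5 sources.

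Whether sources whose breakdown yields glutamate differ from the rest was asked for the carbon entering at 2-oxoglutarate, the substrate of KGD1 and KGD2. Glutamate, glutamine, proline, arginine, ornithine and citrulline were set against the 14 others with the source as the unit. None of the 10 genes was called by limma, against 0.0263% of all genes higher and 0.0263% lower. KGD1 alone had an unadjusted p under 0.05 (0.0497). Its mean was -0.10 (SD 0.14, n = 6 sources) on the glutamate family and 0.06 (SD 0.16, n = 14) on the others, a difference of -0.16 ± 0.07 (adjusted p = 0.542).

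The Ehrlich amino acids leucine, isoleucine, valine, methionine, phenylalanine, tyrosine and tryptophan give up their nitrogen and leave the cell mostly as fusel alcohols and acids, so their carbon hardly enters the cycle. Set against the 13 other sources, 1 of 10 genes was called, SDH3, against 2.25% of all genes higher and 0.661% lower. SDH3 averaged 0.23 (SD 0.24, n = 7 sources) on the Ehrlich amino acids and -0.20 (SD 0.26, n = 13) on the others, a difference of 0.43 ± 0.11 (adjusted p = 0.0371). The groups overlapped. Leucine, methionine, phenylalanine, tryptophan and tyrosine lay above all other sources, whereas isoleucine (0.03) and valine (-0.11) lay among them.

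The remaining subunit genes differed between these classes by 0.47 ± 0.18 for SDH2 (adjusted p = 0.141, n = 4 and 12 sources), 0.33 ± 0.13 for SDH1 (adjusted p = 0.126) and 0.31 ± 0.12 for SDH4 (adjusted p = 0.132), none of which passed. The 6 genes outside succinate dehydrogenase differed by -0.02 to 0.12. With tryptophan and tyrosine left out, whose arrays all had urea in Cy5, SDH3 differed by 0.39 ± 0.13 and was not called (adjusted p = 0.147), nor was it without tryptophan replicate 1 (0.37, 0.0628), tyrosine replicate 1 (0.42, 0.0535), valine replicate 2 (0.41, 0.059) or citrulline replicate 1 (0.42, 0.0502). With threonine added to the class, SDH1, SDH2 and SDH3 were called (adjusted p = 0.0294, 0.0254 and 0.0141), and with arrays in place of sources as the unit all 4 subunit genes were. That unit takes its error from the arrays and leaves out the spread between the sources of a class. The share of all genes called was not counted in either setting.

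**Figure D4:**
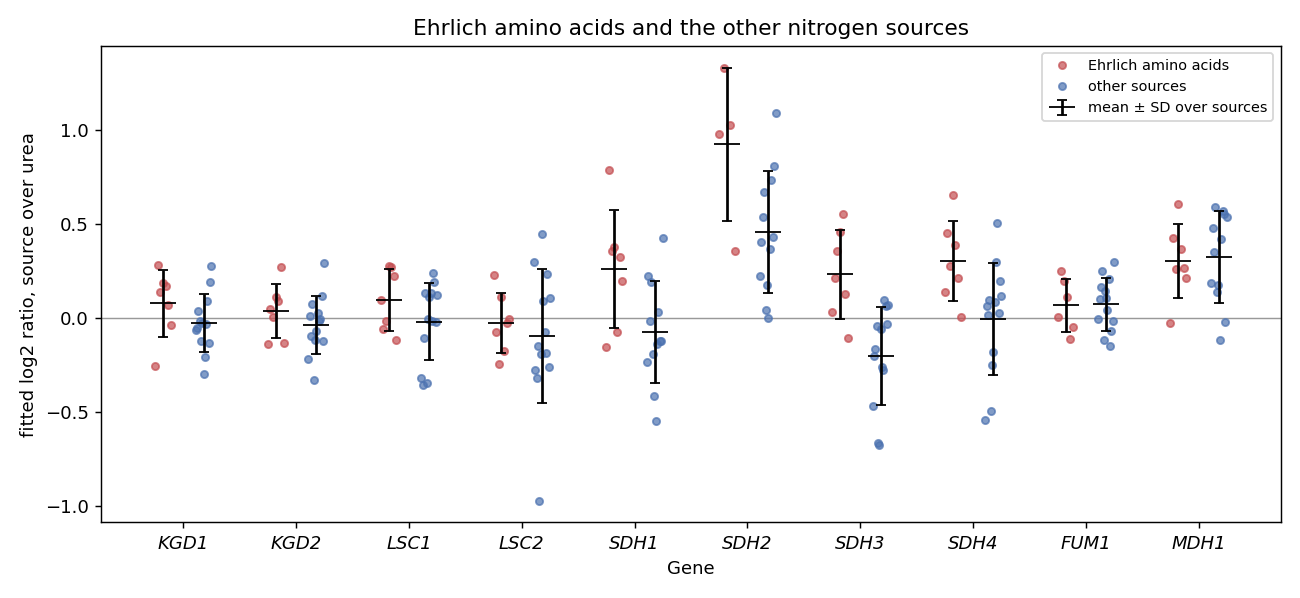
Fitted log2 ratios of source over urea (vertical axis) for the 10 genes (horizontal axis), with a point per source, coloured by class (7 Ehrlich amino acids and 13 other sources), and bars for class means. The SDH3 means are 0.23 and -0.20, with valine and isoleucine among the other sources, and the means of FUM1 and MDH1 nearly coincide.

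Related molecules at the same 10 mM dose were compared within the fit, where urea cancels as far as its RNA was the same on all arrays. The 11 pairs gave 103 differences, with p-values adjusted over all genes and pairs together. A single one was called, against 0.685% higher and 0.358% lower for all genes over the pairs. Without the adjustment 12 had a p under 0.05, and the share of all genes that did was not counted. LSC2 was lower on asparagine, the amide, than on aspartate, the acid, by a log2 difference of -0.78 ± 0.18 (95% interval -1.14 to -0.41, adjusted p = 0.0257), where 0.756% of all genes were lower. Both asparagine arrays of LSC2 lay below both aspartate arrays. The call ended without asparagine replicate 2 (-0.58, adjusted p = 0.274), aspartate replicate 1 (-0.78, 0.11) or aspartate replicate 2 (-0.77, 0.128), and without the dye term the same difference of -0.78 had an adjusted p of 0.258.

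For SDH3, which fell on both asparagine and aspartate, the difference was 0.01 ± 0.19 (95% interval -0.38 to 0.40, adjusted p = 0.992). Citrulline minus arginine, sources that differ by ureido against guanidino nitrogen, gave 0.59 ± 0.18 for LSC2 (adjusted p = 0.126), -0.71 ± 0.24 for MDH1 (0.188), -0.74 ± 0.28 for SDH1 (0.261) and -0.67 ± 0.28 for SDH2 (0.347). Leucine minus isoleucine, a pair of branched-chain isomers, gave 0.94 for SDH1 (95% interval 0.36 to 1.52, adjusted p = 0.128). GABA minus glutamate, which differ by a carboxyl group, gave -0.63 ± 0.23 for SDH4 (95% interval -1.10 to -0.15, adjusted p = 0.245). These did not pass, and their intervals leave sizeable differences possible.

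For the remaining pairs the interval bounds over all tested genes were -0.54 and 0.96 for glutamine minus glutamate, -0.61 and 0.85 for glutamate minus aspartate, and -0.89 and 0.88 for ornithine minus arginine. They were -0.56 and 0.87 for threonine minus serine, -0.55 and 0.99 for serine minus alanine, -0.93 and 0.61 for isoleucine minus valine and -0.92 and 0.58 for tyrosine minus phenylalanine. The tyrosine side of the last pair rests on the dye term of other sources. No gene was called in these pairs, and the numbers with an unadjusted p under 0.05 were 0, 1, 1, 1, 0, 0 and 0.

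The upper arm of the cycle leads from citrate to 2-oxoglutarate. Of 94 tests over 5 of its genes, 16 were higher and 14 lower (17.0% and 14.9%, against 10.1% and 9.42% of all tests), and these shares were not tested against those of the lower arm. Over this list and the 4 that follow, the calls numbered 73 higher and 59 lower, but 45 and 21 without the dye term. IDH1, a subunit gene of NAD-dependent isocitrate dehydrogenase, rose on 8 of 18 sources and fell on 2, from -0.72 ± 0.12 on proline to 0.96 ± 0.12 on methionine. The aconitase gene ACO1 rose on 4 and fell on 2 of 19. CIT1, the mitochondrial citrate synthase gene, fell on 6 of 19 and rose on none, with its lowest value of -0.86 ± 0.16 on glutamate. IDH2, the other subunit gene of isocitrate dehydrogenase, had as many calls as ACO1 and CIT1, 4 higher and 2 lower of 19, and reached -1.36 ± 0.15 on proline. On glutamate none of the 10 lower cycle genes was called, against 20.3% of all genes in either direction. MDH1 stood there at 0.42 ± 0.17, with both arrays above 0 (adjusted p = 0.0792).

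Isozyme and paralog genes gave 6 higher and 6 lower calls in 80 tests (7.5% each). MDH3, the peroxisomal malate dehydrogenase gene, rose on 5 of 20 sources, to 0.41 ± 0.10 on ornithine at the highest. MDH2, the cytosolic one, fell on 4 of 12 and was lowest on GABA, at -0.79 ± 0.20. SHH4, a paralog of SDH4, fell on 2 of 16. MDH1 and MDH3 thus had only higher calls and MDH2 only lower ones, and the genes were not tested against each other. Probe cross-hybridisation between these related genes was not tested.

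Genes that serve the same enzymes gave 15 higher and 9 lower calls in 118 tests (12.7% and 7.63%). FLX1, a mitochondrial flavin transporter gene needed for the flavoprotein of succinate dehydrogenase, rose on 8 of 14 sources and fell on none. YMR31, which encodes a small subunit of 2-oxoglutarate dehydrogenase, fell on 4 of 15, to -0.52 ± 0.12 on GABA. In the same list LPD1 rose on 3 of 20 sources and fell on none, and SDH8 fell on 3 of 17 and rose on none. SDH6, an assembly factor gene of succinate dehydrogenase, had arrays at 2.28 and 2.15 on tryptophan and a fitted ratio of 2.01 ± 0.17. The fitted ratio lies below both arrays because of the dye term. SDH6 also rose on tyrosine (1.93) and phenylalanine (1.56) and fell on GABA (-0.82) and asparagine (-0.54). In the R64 annotation SDH6 lies next to ARO10, the phenylpyruvate decarboxylase gene, which stood at 6.58 on tryptophan, 7.46 on tyrosine and 4.01 on phenylalanine. On asparagine, where SDH6 fell, ARO10 stood at 0.23 ± 0.39 (adjusted p = 0.709), and on GABA it was not tested. The part of ARO10 transcripts in the SDH6 value was not tested.

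Mitochondrial carriers of cycle intermediates were called in 46 of 117 tests, 25 higher (21.4%) and 21 lower (17.9%). The dicarboxylate carrier gene DIC1 rose on 7 of 18 sources and reached 1.62 ± 0.16 on aspartate, a source on which SDH3 fell. The oxaloacetate carrier gene OAC1 rose on 7 of 20, with 1.31 ± 0.13 on methionine, and fell on leucine to -1.09 ± 0.13. ODC1, a 2-oxodicarboxylate carrier gene, rose on 4 and fell on 6 of 19, its lowest value being -0.93 ± 0.11 on asparagine.

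Regulators of respiratory and citric acid cycle genes gave 11 higher and 9 lower calls in 119 tests (9.24% and 7.56%). HAP4, which encodes the activating subunit of the Hap2/3/4/5 complex of respiratory genes, rose on 8 of the 13 sources where it could be tested. Its fitted ratios ran from 0.17 ± 0.18 on proline to 1.12 ± 0.18 on threonine, all above 0. Among the lower cycle genes, only SDH2 had every fitted ratio above 0, the lowest being 0.0012 on citrulline. For the others the share above 0 ran from 7 of 20 sources (LSC2) to 16 of 19 (MDH1), with SDH3 at 9 of 20. A link between HAP4 and these genes was not tested. RTG2, of the retrograde pathway from mitochondria to nucleus, fell on 6 of 20 sources and rose on none, and MKS1, a negative regulator of that pathway, fell on 2 of 15.

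Among 1241 other genes with values on all 20 sources, those whose pattern was most like the mean of the 6 lower cycle genes tested on every source were ATP5 (r = 0.905), YPL229W (0.869), ATP7 (0.864), NDI1 (0.842), QCR10 (0.839) and ERG3 (0.838). ATP5 and ATP7 encode subunits of ATP synthase, NDI1 the internal NADH dehydrogenase, QCR10 a subunit of the cytochrome bc1 complex, and ERG3 a sterol desaturase. The likeness is Pearson's r over 20 sources that share the urea control, given as a description. All 6 like genes were lowest on asparagine. The mean of the 6 lower cycle genes tested on every source, which leaves out SDH1, SDH2, FUM1 and MDH1, was lowest there as well, at -0.49. The choice of the like genes by likeness to that mean favours this. ATP5 ran from -0.57 on asparagine to 0.20 on ornithine, and QCR10 from -0.38 on asparagine to 0.63 on phenylalanine.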

How the data were processed

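Each array held a source and urea in the Cy5 and Cy3 channels. The authors deposited centred log2 ratios per spot in 2 value tables. Base 2 is an assumption, and for normalization, background correction and filters the methods are not given here in any source used. Cy5 over Cy3 was read from the labels as the direction, and as deposited the correlation of opposite arrays was below 0 for all 18 sources with both orientations. For tryptophan and tyrosine, both arrays carried urea in Cy5, so dye and source cannot be separated within them. Once turned to source over urea, the array pairs had correlations across genes of 0.370 to 0.801. Precision is limited by the number of arrays.

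Of 12800 probes per table, 10890 and 11188 named 1 gene in the platform annotation, and the rest were left out. Spots of a gene were averaged, and 4332 genes with values on at least 30 arrays were fitted. Each was fitted by least squares with a term per source and a dye term. Residual variances were moderated with limma 3.58.1 in R 4.3.3 and used in the tests of sources, pairs and F. Tables were made with Python 3.11.15, numpy 2.4.6 and pandas 2.3.3, and figures with matplotlib 3.10.9. Complete genes had 19 residual degrees of freedom, moderated with 6.27 prior ones. Genes with a single array on a source were not tested there. Classes were compared in limma over fitted source ratios, for genes with at least 4 and 7 sources, and pairs as contrasts of the least squares fit. The dye term passed for 2042 genes, LSC1, LSC2 and SDH3 among them.

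Replicate number coincides with dye orientation and table for the 18 sources, and the differences between replicates of a source correlated over 0.1 in all 153 pairs of sources (median 0.440), so the dye term stands for the pairing and a replicate block was an alternative. No source used here says whether both tables were normalized jointly. Alternatives were no dye term, median centring, other filters, medians of spots, array weights, other class members, arrays as the unit and each array left out. The fit was tested on simulated data. The genes, lists, classes and pairs were chosen with earlier results of these data known. Besides the 10 genes, the 3 genes of each list called on most sources (ties by the larger absolute mean over sources) and the 6 most alike genes are named, with the genes of the direction check. ARO10, LPD1 and SDH8, and IDH2, which tied by number of calls, were chosen after their values were seen.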

Additional observations from a re-analysis of the deposited data

Results flagged for a closer look

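SDH3 differed between the classes of nitrogen source, standing higher on the Ehrlich amino acids than on the 13 other sources by 0.43 on the log2 scale (limma, adjusted p = 0.0371), in a test of the difference itself that did not pass with tryptophan and tyrosine left out (0.39, adjusted p = 0.147) or without any 1 of 4 single arrays (0.37 to 0.42, adjusted p = 0.0502 to 0.0628). LSC2 differed between asparagine and aspartate, by a log2 difference of -0.78 (t-test with variances moderated by limma, adjusted p = 0.0257), also tested directly. It did not pass without the dye term (-0.78, adjusted p = 0.258) or without asparagine replicate 2, aspartate replicate 1 or aspartate replicate 2 (-0.58, -0.78 and -0.77, adjusted p = 0.274, 0.11 and 0.128). Among the 6 glutamate-family and 7 Ehrlich sources, 20 searches for a single outlying source found none by Dixon's criterion, where chance would pick out about 1 in 20.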

How the results depend on the processing

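The number of called values of the 10 genes was 25 and ran from 12 to 31 over other settings (14 higher and 3 lower without the dye term, 17 and 12 with array weights, and 22 and 9 without the tryptophan and tyrosine arrays, a setting chosen after seeing the data). It was 12 when genes needed values on all 40 arrays, which leaves out SDH1, SDH2, FUM1 and MDH1, and the F-test then passed 3 genes in place of 6. With single arrays left out the numbers were 22 to 30 and 5 to 7. Shares over all genes were not counted in these settings. With the replicate block replacing the dye term there were again 25, 6, 0, 1 and 1 calls for the values, the F-test, the glutamate family, the Ehrlich class and the pairs, and 113 for the other cycle genes. The Ehrlich class gave 0 calls with tryptophan and tyrosine left out, 3 with threonine added, 4 with arrays as the unit, which leaves out the spread between sources, and 0 to 1 with an array left out. The pairs gave 0 calls without the dye term and 0 to 1 with an array left out. The glutamate family gave 0 under every setting run. The other cycle genes gave 132 calls (73 higher, 59 lower), 66 without the dye term (45 and 21), 47 on all 40 arrays and 114 to 138 with an array left out. Of the 25 called values, 4 (LSC2 and SDH3 on asparagine, SDH3 on aspartate, SDH2 on phenylalanine) kept their call without either array, and none changed sign. SDH1, SDH2 and MDH1 were not fitted when genes needed values on all 40 arrays, so their calls were not scored there. Apart from single arrays left out, 15 kept their call in every setting in which they were scored, and 10 lost it in at least 1. Without the dye term the lost calls were LSC2 on citrulline, SDH2 on arginine, SDH3 on GABA and phenylalanine, SDH4 on GABA, asparagine and ornithine, and MDH1 on alanine. With array weights they were LSC2 on citrulline, SDH2 on arginine, SDH3 on tryptophan, and MDH1 on alanine and arginine. Except where fewer genes or arrays were used, the cause was not tested.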
